A study of Mus musculus with 20 samples.

Results

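F-box proteins are the substrate receptors of SCF ubiquitin ligases, complexes in which the scaffold Cul1, the RING protein Rbx1 and the adaptor Skp1 hold an exchangeable receptor that picks the protein to be ubiquitinated. The F-box motif binds Skp1, and a second domain binds the substrate: WD40 repeats in the Fbxw class, leucine-rich repeats in the Fbxl class and various other domains in the Fbxo class. In the brain, members of the family are known for the turnover of synaptic proteins, iron regulators and glycoproteins.

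The genes described here are those with a symbol starting Fbxo, Fbxl or Fbxw followed by a digit, present in all 20 deposited tables and at 0.5 FPKM or more in at least 5 libraries. FPKM are fragments scaled to the length of the transcript and to the sequencing yield of the library, so levels are per length. This gave 53 genes out of 13174 tested, of which 30 were Fbxo, 15 Fbxl and 8 Fbxw genes. No gene with such a symbol in the tables was lost to the level filter. Those nearest to it were Fbxo17, at 0.5 FPKM or more in 6 libraries, and Fbxl7, in 8 libraries.

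RNA came from the hippocampus of female KO, female WT, male KO and male WT mice, with 5 libraries in each group. KO mice carried a mutated Fmr1 gene, which the titles call KO and the genotype field calls a knockdown, and WT mice were C57 mice. Age, the kind of Fmr1 allele and its zygosity in females were not stated in the labels, nor was the background strain of the KO mice. The titles of all 20 libraries also carry the tag Con, which the labels do not explain. No label said that the libraries of a group came from separate animals, so each p-value reflects the spread of these samples, which may be technical.

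Fmr1 itself stood at 3.32 ± 0.327 FPKM in female KO and 10.6 ± 0.558 FPKM in female WT libraries (SD, n = 5 each), and at 3.56 ± 0.187 FPKM in male KO and 11.4 ± 0.527 FPKM in male WT libraries (SD, n = 5 each). Pearson's r of log2(FPKM + 1) between any 2 libraries lay between 0.977 and 0.990. The summed level of 6 neuronal markers was 685 to 722 FPKM in female KO, 705 to 726 FPKM in female WT, 716 to 739 FPKM in male KO and 726 to 760 FPKM in male WT libraries. Prl, a pituitary hormone gene, exceeded 4 FPKM in female KO replicates 2, 3 and 4 and in no other library. Ttr, the main choroid plexus transcript, exceeded 500 FPKM in female KO replicates 4 and 5, female WT replicate 4 and male KO replicate 2. In bulk tissue, fewer cells of a type and less RNA per cell cannot be told apart.

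The promoter windows of 2 of the receptors are shown because both genes differed between groups below, the RefSeq start equals the gene start in the deposited tables, and they lie far apart in base composition. Each window is the 250 bases before the start on the plus strand of GRCm38.p6, from RefSeq, at chr6:119479418-119479667 for Fbxl14 and chr7:19119609-19119858 for Fbxo46. Capitals mark the GC box GGGCGG or its reverse complement CCGCCC.
Fbxl14: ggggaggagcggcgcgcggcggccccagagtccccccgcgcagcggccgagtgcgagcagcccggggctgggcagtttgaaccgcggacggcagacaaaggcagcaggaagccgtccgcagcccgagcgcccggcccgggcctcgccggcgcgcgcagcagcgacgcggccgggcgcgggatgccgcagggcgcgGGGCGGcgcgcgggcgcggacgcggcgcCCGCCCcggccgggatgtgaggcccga
Fbxo46: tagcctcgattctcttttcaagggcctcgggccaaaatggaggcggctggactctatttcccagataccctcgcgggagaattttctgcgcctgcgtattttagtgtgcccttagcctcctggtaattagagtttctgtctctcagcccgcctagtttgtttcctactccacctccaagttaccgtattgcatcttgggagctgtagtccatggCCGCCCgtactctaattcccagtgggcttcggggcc

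The Fbxl14 window was 82.8% G or C, the highest of the 59 RefSeq windows matched to 41 members, and held 2 GC boxes. The Fbxo46 window was 53.6% G or C and held 1 GC box. The median was 59.2% over the member windows and 52.4% over all 32851 windows of the table. All windows together cover 27025 genes and were not limited to the 13174 tested ones, while every member was tested. The 2 sets are thus unlike in more than family. A GC box on either strand was found in 61% of the member windows and 32.7% of all windows. TATAAA was found in 0% of the member windows and 12.4% of all, CCAAT in 22% and 33.8%, the E-box CACGTG in 5.08% and 6.02%, and the CRE TGACGTCA in 1.69% and 1.55%, each searched on both strands. Such matches describe letters in these windows and name no binding site.

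Across the 20 libraries the receptors covered a wide range of levels, with a median of 6.18 FPKM for the mean level against 5.61 FPKM over all tested genes. Fbxl16, a brain-enriched leucine-rich repeat protein, was the highest at a mean of 172 FPKM. Next came Fbxo2, a receptor for high-mannose glycoproteins, at 44.0 FPKM and Fbxo11, which targets BCL6 in human cells, at 36.8 FPKM. They were followed by the β-TrCP paralogue Fbxw11 at 34.6 FPKM, and by Fbxw7, the receptor for cyclin E, Myc and Notch1, at 24.2 FPKM. The remaining members of the 10 highest were Fbxo21, Fbxo45, Fbxo9, Fbxo31 and Fbxo44, between 22 and 15.6 FPKM. The 5 lowest were Fbxo36, Fbxl21, Fbxo5, Fbxl7 and Fbxo17, between 1.11 and 0.467 FPKM. Fbxo5 is the inhibitor of the anaphase-promoting complex known as Emi1.

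**Figure D1:**
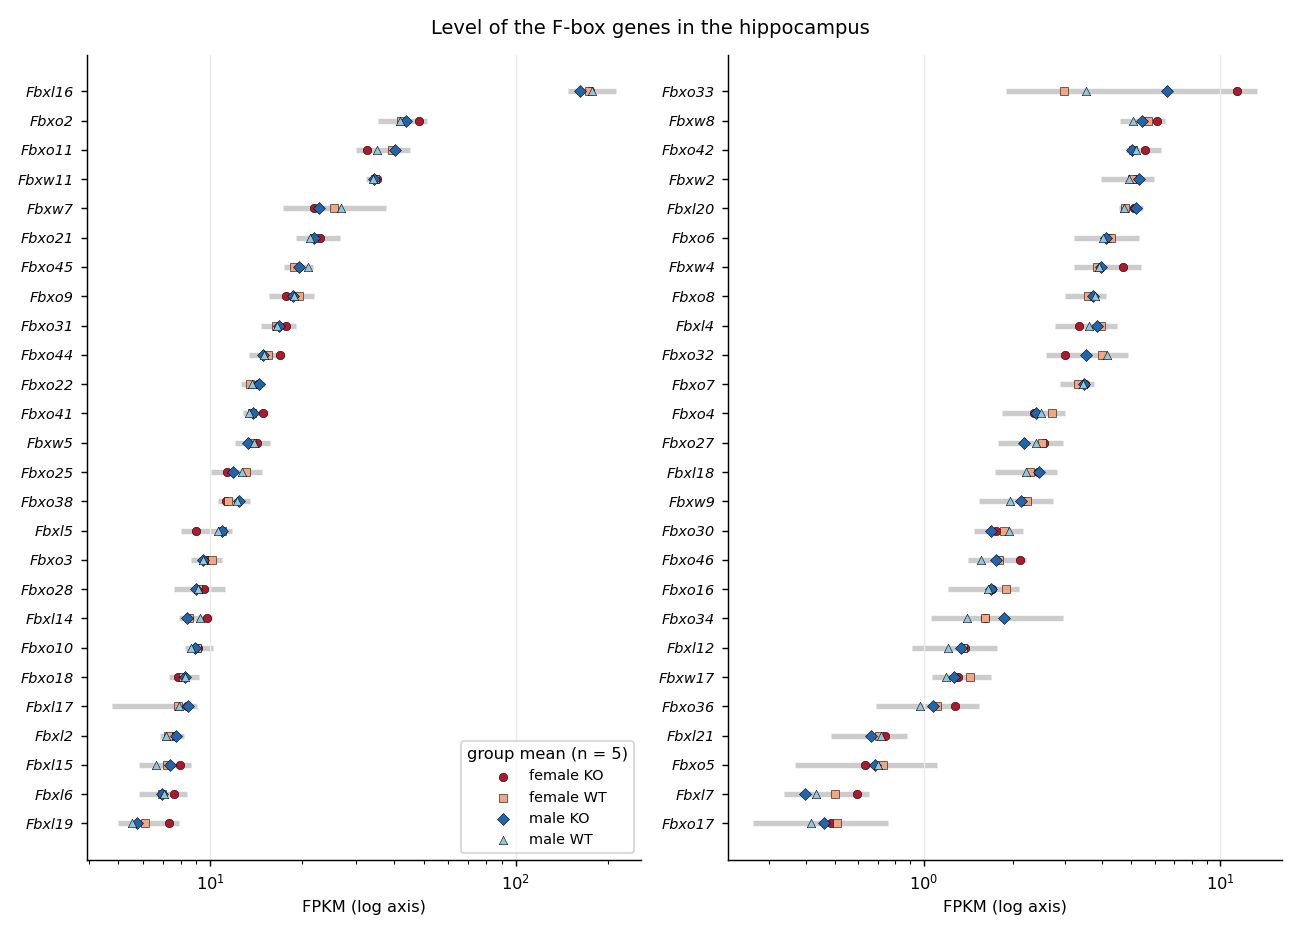
Mean FPKM of 52 F-box genes in the 4 groups (markers, n = 5 libraries each) on a log axis, with the range over all 20 libraries as a grey bar, ordered by mean level. Fbxl16 stands apart at the top at 172 FPKM, and the bar of Fbxo33 is the widest, spanning 1.89 to 13.3 FPKM.

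Some of the receptors lie side by side in the mm10 coordinates of the deposited tables. Fbxo6 (chr4:148145716-148152140), Fbxo44 (chr4:148152800-148160482) and Fbxo2 (chr4:148160621-148166424), which share the F-box-associated domain, are consecutive, and their mean levels were 4.15, 15.6 and 44.0 FPKM. The other pair with this domain, Fbxo27 (chr7:28692849-28699338) and Fbxo17 (chr7:28716804-28738144), stood at 2.40 and 0.467 FPKM.

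Most receptors varied little between libraries of a group. The median residual SD of log2(FPKM + 1) was 0.117 over the members and 0.106 over all tested genes. Fbxw11 was the steadiest at a residual SD of 0.0425, with 32.4 to 36.2 FPKM over all 20 libraries. Fbxo33 was the most variable at 0.616 and Fbxw7 followed at 0.40. Fbxw7 was at 30.8 FPKM or more in 6 libraries spread over all 4 groups and at 22.5 FPKM or less in the other 14. Fbxl17, which removes misassembled BTB domain dimers in human cells, stood at 4.76 FPKM in female WT replicate 2 and 5.31 FPKM in male WT replicate 2, and at 7.89 to 9.06 FPKM in the other 18 libraries.

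In females, Fbxo33 and Fbxl14 were higher and Fbxo32 and Fbxl5 lower in KO than in WT libraries. Of the 53 members, 4 passed limma's test at an adjusted p under 0.05, or 7.55%, against 3.32% of all tested genes. The family was chosen with earlier results of these data known, so this and later shares of called members are not independent of those results. At an unadjusted p under 0.05 there were 16 members, or 30.2%, against 19.5% of all tested genes. The difference was above 0 for 34 members, 64.2% against 52% of all tested genes, with a median log2(FPKM + 1) difference of 0.03 over the members and 0.01 over all tested genes. Of 45 markers of 11 cell types, 3 also separated these groups without overlap, 6.67% against 5.99% of all tested genes, and their part in the female differences was not tested. The neuronal marker Neurod6 was at 115 to 121 FPKM in female KO and 133 to 151 FPKM in female WT libraries, and the oligodendrocyte marker Opalin was at 10.4 to 12.2 FPKM in female KO and 12.5 to 23.2 FPKM in female WT libraries. The collagen gene Col1a1, a meningeal marker, was at 1.45 to 2.72 FPKM in female KO and 0.768 to 1.19 FPKM in female WT libraries. The summed levels of these lists overlapped, at 310 to 385 FPKM in female KO and 286 to 481 FPKM in female WT libraries for 4 oligodendrocyte markers. For 4 meningeal markers they were 16.8 to 24.3 FPKM in female KO and 14.6 to 22.6 FPKM in female WT libraries.

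Fbxo33, whose known substrate in human cells is the Y-box protein YBX1, lies on the minus strand at chr12:59200655-59219725. It had 10.9, 11.8, 10.7, 11.1 and 12.3 FPKM in the female KO libraries, against 3.64, 2.09, 3.52, 2.51 and 3.07 FPKM in the female WT libraries. The groups did not overlap and no female library lay between 3.64 and 10.7 FPKM. The log2(FPKM + 1) difference was 1.66 (SE 0.359, 95% interval 0.90 to 2.41), with an adjusted p of 0.0186 by limma. In males the gene had 12.6, 13.3, 1.89, 2.36 and 2.89 FPKM in the KO libraries, against 2.65, 2.38, 2.72, 4.99 and 4.82 FPKM in the WT libraries. Male KO replicates 1 and 2 thus stood at the level of the female KO libraries and replicates 3 to 5 within or below the range of the male WT libraries. The male difference of 0.44 did not pass (adjusted p = 0.79 by limma), and its 95% interval on the log2(FPKM + 1) scale ran from -0.31 to 1.19. It was 0.14 without male KO replicate 1, 0.12 without male KO replicate 2 and 0.70 without male KO replicate 3. The difference between the sexes in the KO effect, -1.22 (SE 0.508), did not pass either (adjusted p = 0.444 by limma). All 7 libraries above 10 FPKM were KO libraries, and 3 of 10 KO libraries stood within or below the WT range.

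Fbxl14, which targets Snail family factors in frog and human cells, is a single-exon gene on the plus strand at chr6:119479668-119482630, inside the span of Wnt5b on the other strand. It had 9.60, 9.42, 9.58, 10.01 and 10.1 FPKM in the female KO libraries, against 8.71, 8.62, 8.84, 8.04 and 8.25 FPKM in the female WT libraries. In males it had 8.22, 8.70, 8.71, 7.91 and 8.30 FPKM in the KO libraries, against 9.34, 8.52, 9.20, 9.54 and 9.57 FPKM in the WT libraries. The female groups did not overlap, while the male groups overlapped through WT replicate 2. The female difference was 0.18 (SE 0.0380) with an adjusted p of 0.0167 by limma, and the male difference was -0.13 with an adjusted p of 0.287. Fbxl14 was the only member whose KO effect differed between the sexes, at -0.31 (SE 0.0537, adjusted p = 0.0436 by limma) for the male minus the female effect. It was 1 of 53 members, or 1.89%, against 0.0455% of all tested genes. This share rests on 1 gene in a family chosen with earlier results of these data known, so it says nothing about the family. At an unadjusted p under 0.05 there were 8 members, 15.1% against 10% of all tested genes, and 25 members, 47.2% against 46%, had a male minus female effect above 0.

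That call was close to the threshold. It was lost in 25 of 30 alternative analyses, where its adjusted p ran from 0.0121 to 0.266, and remained under omission of a single library only without male WT replicate 2. The difference itself stayed between -0.34 and -0.27 over these 30 alternatives. Wnt5b, whose span on the other strand contains Fbxl14, had a mean of 0.649 FPKM and a female difference of 0.09 with an adjusted p of 0.657 by limma. Strand information matters only for reads within the Fbxl14 span, and whether Wnt5b has exons there was not examined.

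Fbxo32 encodes atrogin-1, known for protein loss in wasting muscle. It had 2.57, 3.01, 3.06, 3.29 and 3.01 FPKM in the female KO libraries, against 3.72, 3.91, 4.14, 4.87 and 3.32 FPKM in the female WT libraries. In males it had 3.20, 3.99, 3.20, 3.43 and 3.84 FPKM in the KO libraries, against 4.15, 3.59, 4.45, 4.52 and 4.01 FPKM in the WT libraries. All female KO values lay below all female WT values, and in males the groups overlapped. The difference was -0.32 (SE 0.0767) in females with an adjusted p of 0.0307 by limma, and -0.18 in males with an adjusted p of 0.513. The summed level of 5 skeletal muscle markers was 3.06 to 4.0 FPKM in female KO, 2.76 to 3.36 FPKM in female WT, 3.07 to 3.85 FPKM in male KO and 5.57 to 8.72 FPKM in male WT libraries. Its part in the Fbxo32 values was not tested. The other measured receptor known from muscle, Fbxo30, had differences of -0.06 in females and -0.13 in males that did not pass.

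Fbxl5 is the iron-sensing receptor that removes the iron regulatory protein encoded by Ireb2. It had 8.01, 9.21, 9.54, 9.77 and 8.34 FPKM in the female KO libraries, against 10.5, 10.4, 11.1, 11.7 and 11.1 FPKM in the female WT libraries. The male values were 10.6, 11.8, 10.8, 11.2 and 10.4 FPKM in the KO libraries, against 11.7, 11.2, 11.7, 9.11 and 9.44 FPKM in the WT libraries. The female groups did not overlap and the male groups did. The female difference was -0.26 (SE 0.0665) with an adjusted p of 0.0359 by limma, and the male difference was 0.04. Ireb2 itself did not pass in any of the 6 comparisons. The summed level of 3 erythrocyte markers was 275 to 430 FPKM in female KO and 197 to 350 FPKM in female WT libraries, and its part in the Fbxl5 values was not tested.

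Another 3 members stood higher in every female KO than in every female WT library without passing the test. They were Fbxl19, which binds unmethylated CpG islands through its CXXC domain, with a difference of 0.23 (adjusted p = 0.0638 by limma), Fbxo46 with 0.15 (adjusted p = 0.0695) and Fbxl7. Fbxl7 met the level filter only through its female KO libraries, so its separation is not independent of that filter. In all, 5 members, or 9.43%, stood higher without overlap, against 3.17% of all tested genes, and 2 members, or 3.77%, stood lower without overlap, against 2.82%.

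The number of female calls changed with the libraries that entered, while the 4 differences kept their direction. The count of 4 was 0 without the 3 libraries with Prl above 4 FPKM, which leaves 2 female KO libraries, and 0 without the 4 libraries with Ttr above 500 FPKM. Over all tested genes the female calls fell as well, from 438 to 8 without the Prl libraries and to 76 without the Ttr libraries. It was 2 when any 1 of female WT replicates 3 and 4 and female KO replicates 1, 2, 3 and 5 was left out. Without the Prl libraries the difference was 0.20 for Fbxl14, -0.38 for Fbxl5 and -0.39 for Fbxo32, and without the Ttr libraries it was 0.13, -0.25 and -0.30. The Fbxo33 difference was 1.68 without the Prl libraries (adjusted p = 0.216) and 1.59 without the Ttr libraries (adjusted p = 0.0871), within a range of limma's adjusted p from 4.18e-05 to 0.216 over 31 alternatives. The lowest came from a fit of the female groups alone, which called no other member. In the reported fit all groups share a single estimate of the spread. The SD of Fbxo33 was 5.80 FPKM in male KO, 1.28 in male WT, 0.688 in female KO and 0.663 in female WT libraries (n = 5 each). Fbxl5 lost its call in 12 and Fbxo32 in 9 of 31 alternatives.

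**Figure D2:**
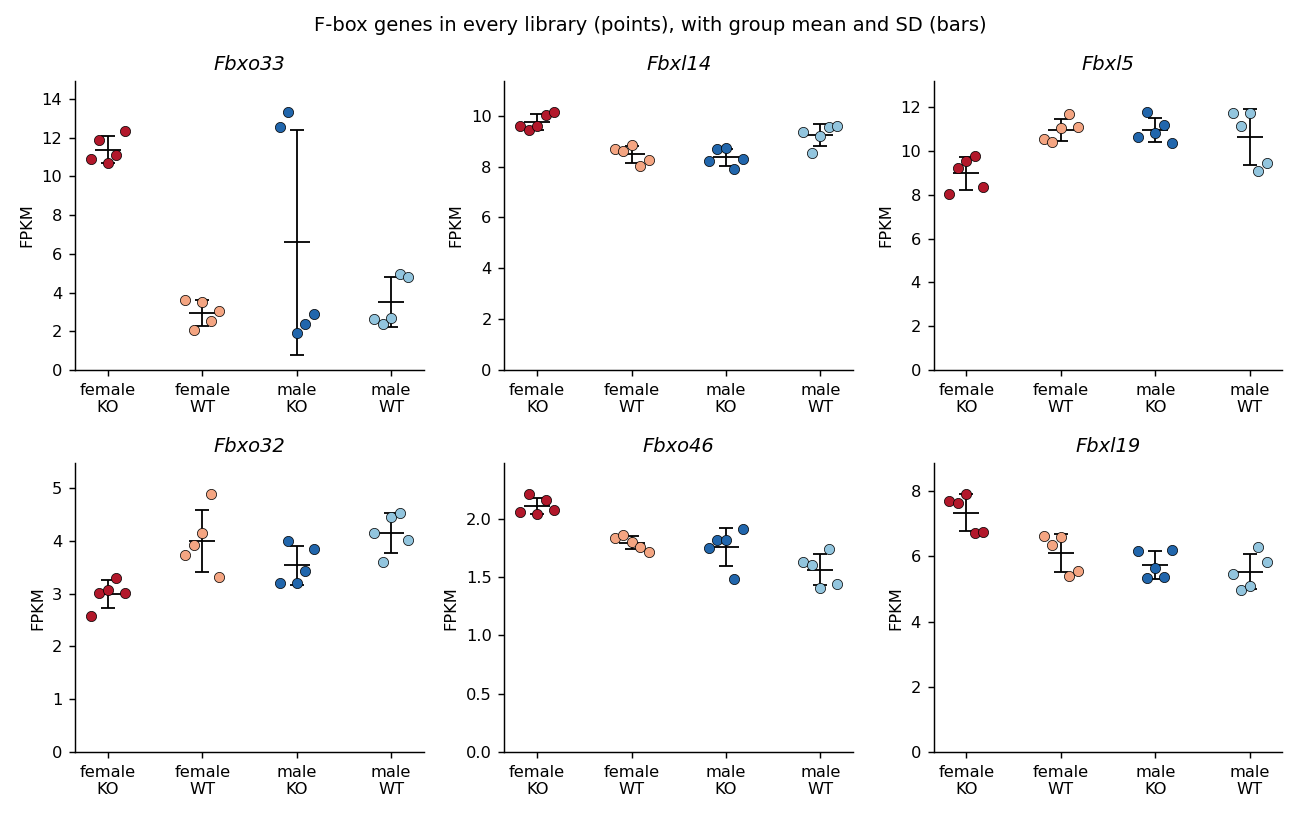
FPKM of Fbxo33, Fbxl14, Fbxl5, Fbxo32, Fbxo46 and Fbxl19 in each of the 20 libraries (points, replicates 1 to 5 from left to right within a group), with the group mean and SD (bars, n = 5), axes from 0. Male KO replicates 1 and 2 of Fbxo33 lie at 12.6 and 13.3 FPKM beside 3 libraries at 2.89 FPKM or less, and the female KO libraries of all 6 genes do not overlap the female WT libraries.

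In males, none of the 53 members passed limma's test between KO and WT libraries, against 0.0455% of all tested genes. The difference was above 0 for 33 members, 62.3% against 49.2% of all tested genes. At an unadjusted p under 0.05 there were 6 members, or 11.3%, against 8.69% of all tested genes: Fbxl20, Fbxl2 and Fbxo46 on the higher side and Fbxl14, Fbxo32 and Fbxo30 on the lower side. No member separated the male groups without overlap, against 0.607% of all tested genes on the higher side and 1.4% on the lower. Of the 45 cell type markers, 6 separated the male groups without overlap, 13.3% against 2% of all tested genes. Neurod6 and the muscle genes Ckm, Atp2a1, Myh4 and Tnnt3 were lower and Col1a1 higher in male KO libraries. Their part in the male values was not tested. The smallest p among the receptors was that of Fbxl14 given above. Fbxl20, the synaptic receptor for the active zone protein Rims1, had a difference of 0.11 with a 95% interval of 0.03 to 0.20 and an adjusted p of 0.406 by limma.

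Averaged over the sexes, Fbxo33 and Fbxo46 were higher and Fbxo32 was lower in KO than in WT libraries. These 3 members were 5.66% of the family, against 3.22% of all tested genes. At an unadjusted p under 0.05 there were 15 members, 28.3% against 18% of all tested genes, and 33 members, 62.3% against 50.9%, had a mean effect above 0. The mean KO effect was 1.05 for Fbxo33 (SE 0.254, adjusted p = 0.0295 by limma) and -0.25 for Fbxo32 (SE 0.0542, adjusted p = 0.0178). The Fbxo32 effect was lost only without the Prl libraries (adjusted p = 0.0619) of 30 alternatives, over which its adjusted p ran from 0.0116 to 0.0619.

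Fbxo46 lies at chr7:19119859-19140172 and overlaps Qpctl on the other strand. It had 2.06, 2.21, 2.04, 2.16 and 2.08 FPKM in female KO libraries, against 1.83, 1.86, 1.80, 1.76 and 1.72 FPKM in female WT libraries. In males it had 1.75, 1.82, 1.82, 1.48 and 1.91 FPKM in KO libraries, against 1.62, 1.60, 1.41, 1.74 and 1.44 FPKM in WT libraries. Female KO values were above all female WT values, and in males 4 of 5 KO values were above all WT values. The mean KO effect was 0.13 (SE 0.0326) with an adjusted p of 0.0375 by limma, and it was lost in 18 of 30 alternatives. Qpctl had a mean KO effect of 0.07 with an adjusted p of 0.304.

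The count of 3 was 0 without the Prl libraries, and 1 without the Ttr libraries or when any 1 of female WT replicate 4 and male WT replicates 2 and 3 was left out. Over all tested genes the calls fell as well, from 424 to 84 without the Prl libraries and to 181 without the Ttr libraries. Without the Prl libraries the mean KO effect was 1.06 for Fbxo33, 0.12 for Fbxo46 and -0.29 for Fbxo32, and without the Ttr libraries it was 0.86 for Fbxo33 and 0.12 for Fbxo46. Fbxo33 lost its call in 7 of 30 alternatives, with adjusted p from 0.0178 to 0.154 by limma.

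The KO effects of the 2 sexes come from separate libraries and can be set side by side. They had the same sign for 30 of 53 members, 22 higher in both sexes and 8 lower in both, or 56.6%, against 57.3% of all tested genes. Pearson's r between the female and male effects was 0.526 across the members and 0.149 without Fbxo33, and Spearman's rho was 0.232, against a Pearson's r of 0.173 across all tested genes. Genes are not independent replicates, so these are descriptions. Fbxo11 had a female effect of -0.26 and a male effect of 0.18, neither of which passed, and the difference of 0.45 between them did not pass either (adjusted p = 0.335 by limma).

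**Figure D3:**
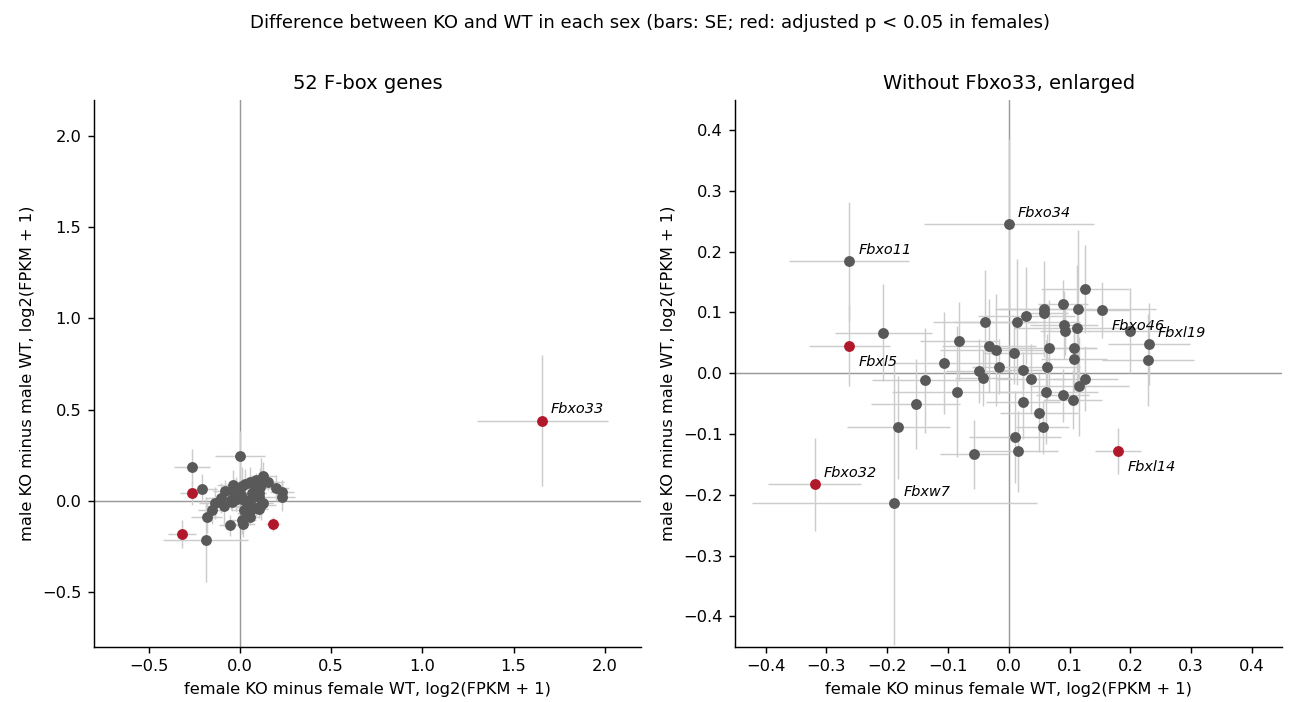
Log2(FPKM + 1) difference between KO and WT in females (horizontal axis) and males (vertical axis) for 52 F-box genes (left) and enlarged without Fbxo33 (right), with SE bars and members with an adjusted p under 0.05 in females in red. Fbxo33 lies far to the right at 1.66, and Fbxl14 lies at 0.18 in females and -0.13 in males.

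Between the sexes, no member differed in WT libraries, against 0.129% of all tested genes. At an unadjusted p under 0.05 there were 6 members, or 11.3%, against 10.3% of all tested genes, and 20 members, 37.7% against 48.8%, were above 0. The smallest p was that of Fbxo45, a synaptic receptor that pairs with the ligase Mycbp2, with 20.8 ± 0.924 FPKM in male WT and 18.8 ± 1.5 FPKM in female WT libraries (SD, n = 5 each) and a difference of 0.14 (adjusted p = 0.277 by limma). No member separated the WT libraries of the sexes without overlap, against 1.39% of all tested genes higher in males and 0.789% lower. Of the 45 cell type markers, 7 did so, 15.6% against 2.18% of all tested genes. The muscle genes Ckm, Atp2a1, Myh4, Acta1 and Tnnt3 were higher and Aldh1l1 and Col1a1 lower in male WT libraries. Their part in these values was not tested.

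In KO libraries, 5 members differed between males and females, 9.43% of the family, against 5.38% of all tested genes. At an unadjusted p under 0.05 there were 16 members, 30.2% against 23.3% of all tested genes, and 20 members, 37.7% against 46.9%, were above 0. Fbxl14, Fbxl19, Fbxl7 and Fbxo46 were lower and Fbxl5 was higher in male KO libraries. These 5 were also the members whose groups did not overlap, with 1 higher, or 1.89%, against 3.5% of all tested genes, and 4 lower, or 7.55%, against 4.52%. Fbxl7 met the level filter only through its female KO libraries, all above 0.5 FPKM, while every male KO library was below. Its call and its place among the separated members are thus not independent of that filter. For Fbxl14 and Fbxl5 the values are those given above, with differences of -0.20 (adjusted p = 0.01 by limma) and 0.26 (adjusted p = 0.0304).

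Fbxl19 had 6.17, 5.33, 5.65, 5.37 and 6.19 FPKM in male KO libraries, against 7.70, 7.63, 7.90, 6.70 and 6.74 FPKM in female KO libraries. The difference was -0.31 (SE 0.0674) with an adjusted p of 0.0195 by limma. Fbxl7 had 0.347, 0.485, 0.357, 0.337 and 0.464 FPKM in male KO libraries, against 0.623, 0.655, 0.551, 0.594 and 0.553 FPKM in female KO libraries. Its difference was -0.19 with an adjusted p of 0.0221 by limma, at levels near the filter. With the size of the pseudocount it moved by over 1.5 times: it was -0.49 with a pseudocount of 0.1, with an adjusted p of 0.0256 within 0.0135 to 0.218 over 30 alternatives. Fbxo46 differed by -0.18 with an adjusted p of 0.0344. This contrast uses the same female KO libraries as the female KO and WT contrast, so a value that stands apart there moves both.

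The count of 5 was 1 when the Ttr libraries were left out, and 0 when the Prl libraries were left out or the GC trend was removed. Over all tested genes the calls fell from 709 to 71, 23 and 109 in these 3 settings, in that order. Without the Prl libraries the differences were -0.215 for Fbxl14, 0.38 for Fbxl5, -0.285 for Fbxl19, -0.185 for Fbxl7 and -0.16 for Fbxo46. With the GC trend removed they were -0.13 for Fbxl14, 0.20 for Fbxl5, -0.18 for Fbxl19, -0.16 for Fbxl7 and -0.12 for Fbxo46. All 5 kept their direction in both, and those of Fbxl14 and Fbxl19 were smaller by over 1.5 times with the GC trend removed. Omission of a single library gave 3 when it was female KO replicate 2, 3 or 5, and 2 when it was either of male KO replicates 1 and 4. Of the 45 cell type markers, 6 separated the KO libraries of the sexes, 13.3% against 8.02% of all tested genes: Neurod6, Prox1 and Opalin were higher and Col1a1, Col1a2 and Foxj1 lower in every male KO library. Their part in these differences was not tested.

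The base composition of the transcripts moved with these differences. Median GC content of the longest transcript was 50% over the members and 49.7% over the tested genes. In females, the 26 members above 50% GC had a median KO difference of 0.08, with 20 of 26 above 0, and the other 27 had a median of 0.01, with 14 of 27 above 0. Over all tested genes the corresponding medians were 0.04 and -0.02. Between male KO and female KO libraries, 4 of the 26 members with higher GC and 16 of the other 27 had differences above 0. Over all tested genes the medians were -0.06 above 50% GC and 0.04 at or below it. For a slope on GC, each gene's log2(FPKM + 1) was taken as its deviation from its mean over the 20 libraries. The slope of these deviations was 0.0618 to 0.0759 per 10 percentage points in female KO and -0.0279 to 0.0311 in female WT libraries. It was -0.0669 to 0.00678 in male KO and -0.0951 to 0.0103 in male WT libraries. Each slope is relative to the average of the 20 libraries. The 5 female KO libraries were thus the 5 highest. With the GC trend removed from each library, Fbxo33 and Fbxo32 kept their calls in females, while Fbxl14 (difference 0.14, adjusted p = 0.0524 within 0.0142 to 0.2 over 31 alternatives) and Fbxl5 (-0.22, adjusted p = 0.0634 within 0.0227 to 0.183) did not. The mean KO effect on Fbxo46 (0.11) and the difference between the sexes in the KO effect on Fbxl14 (-0.27) kept their direction and lost their calls.

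**Figure D4:**
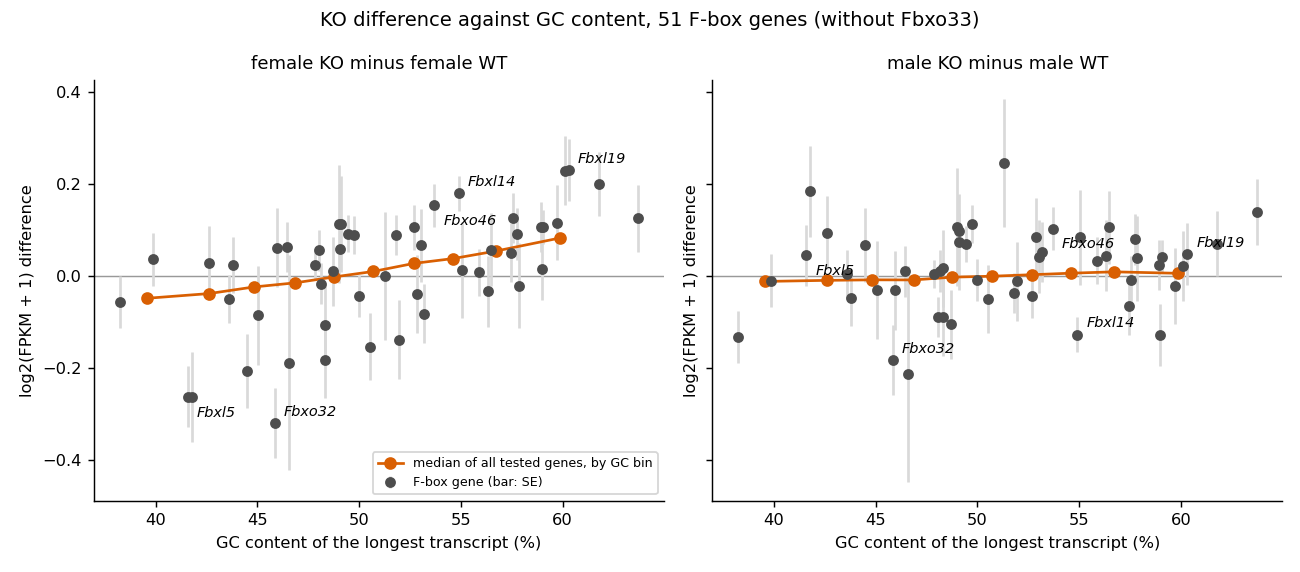
Log2(FPKM + 1) difference between KO and WT against GC content of the longest transcript for 51 F-box genes (Fbxo33 omitted for scale; grey points with SE), in females (left) and males (right), with the median of all tested genes in 10 bins of GC content (orange). The orange line runs from -0.05 to 0.08 in females and from -0.01 to 0.01 in males.

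By role, most groups held no member that passed in either sex. Among the 5 receptors with the F-box-associated domain none passed, with medians of 0.01 in females and 0.04 in males. Fbxo2, which has the NMDA receptor subunit Grin1 among its substrates, had 48.3 ± 2.60 FPKM in female KO and 42.0 ± 3.85 FPKM in female WT libraries (SD, n = 5 each), a difference of 0.20 that did not pass. None passed among the 7 receptors known from synapses and neurons, among them Fbxl16, Fbxo41 and Fbxl20, with medians of 0.09 in females and 0.02 in males. None passed among the 5 phosphodegron receptors Fbxw7, Fbxw11, Fbxw8, Fbxo4 and Fbxo31 (medians 0.02 and 0.00458). None of Fbxo7, a parkinsonism gene, Fbxl4, a gene of mitochondrial DNA depletion, and Fbxl7 passed between KO and WT in either sex. The same held for Fbxo5, Fbxo38, Fbxo11 and Fbxo10.

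The rest of the ligase machinery, together with partners and substrates of the ligases, was read from a list of 84 genes. Of these, 79 were tested, 31 of them partners and substrates. In females 0 of the 79 were higher and 1 was lower in KO libraries, with a median of 0.00178. In males 0 were higher and 0 lower, with a median of -0.00997. The calls were 1.27% in females, against 3.32% of all tested genes, and 0% in males, against 0.0455%. The female gene was Cul3, the scaffold of the BTB receptor ligases, with 31.7 ± 0.721 FPKM in female KO and 35.8 ± 1.99 FPKM in female WT libraries (SD, n = 5 each), a difference of -0.17 with an adjusted p of 0.0364 by limma. Cul1, the SCF scaffold, did not pass in either sex, nor did Skp1a, Rbx1 or the modifier Nedd8, which had 42.8 ± 2.76 FPKM in female KO and 32.6 ± 3.02 FPKM in female WT libraries (SD, n = 5 each; adjusted p = 0.10 by limma). Over both sexes, 0 were higher and 2 lower, or 2.53% against 3.22% of all tested genes. They were Ccnd1, a substrate of Fbxo4 and Fbxo31 in human cells, at -0.30 (adjusted p = 0.00644) and Map1b, a microtubule-associated protein of axons, at -0.13 (adjusted p = 0.0326). Both belong to the partners and substrates, so no gene of the machinery itself passed here. Between male KO and female KO libraries 7 of 79 passed, or 8.86% against 5.38% of all tested genes. The 5 higher were the scaffolds Cul1 and Cul3, the neddylation genes Nae1 and Dcun1d5, and the COP9 signalosome subunit Cops3. The lower 2 were Cops7a, another signalosome subunit, and Ccnd1. The 5 tested F-box genes with other symbols, Skp2 and Btrc among them, held none that passed in any of the 6 comparisons.

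**Figure D5:**
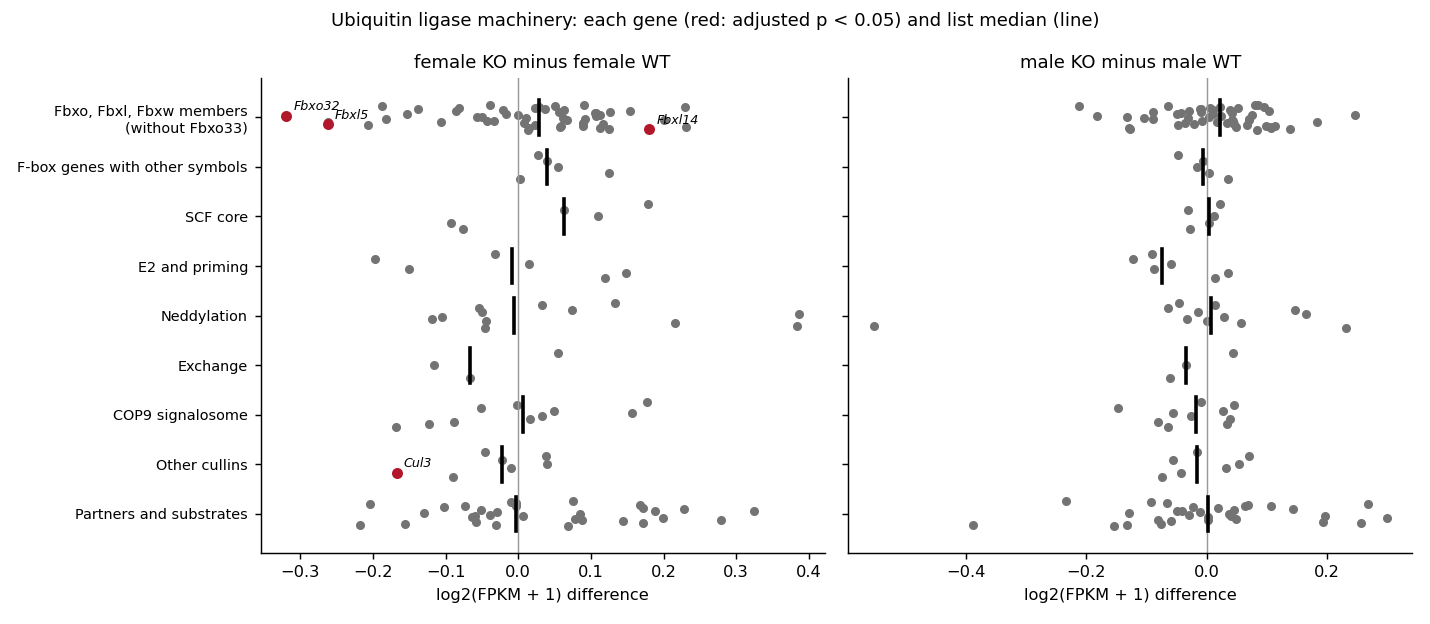
Log2(FPKM + 1) difference between KO and WT for 51 F-box genes, without Fbxo33, and for each list of ligase machinery, partners and substrates, in females (left) and males (right). Points are genes (red: adjusted p under 0.05, named) and lines are list medians. Cul3 is the single red gene outside the F-box rows, at -0.17 in females.

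Around Fbxo33, 27 other tested rows started within 5 Mb. None of them passed in females, and none had an r above 0.637 with it over the 20 libraries. Averaged over the sexes 5 rows were lower in KO libraries, 18.5% against 1.84% of all tested genes. They were Srp54a (in 2 rows), Srp54b, Fam177a and 1700047I17Rik2, all 3.97 to 4.12 Mb away. These 5 rows lie side by side at chr12:55080262-55263836, so the share comes from a single segment. Their r with Fbxo33 was -0.407 to -0.371. Around Fbxl14, 4 of 68 neighbours were higher in female KO libraries, 5.88% against 1.8% of all tested genes. They were Slc2a3, Slc25a18, 8430408G22Rik and Tmem121b. Over the 20 libraries, the profiles most like that of Fbxo33 were those of Hsdl1 (Pearson's r 0.809), Atg9b (0.797), Dnajc3 (0.789), Esam (0.781) and Tspan31 (0.780), a description over libraries that share the 4 groups.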

How the data were processed

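The labels' protocols state TRIzol extraction of total RNA from hippocampus and a SMARTER mRNA-seq kit. Per the file headers, each library's table lists FPKM by gene as deposited. Tools in the submitters' processing notes were StringTie, HISAT2 and FastQC, with no version, on mm10. Trimming, annotation release and strandedness: not given in the sources used here. FPKM keep no count, so the depth is unknown and no counting interval was computed.

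Groups were taken from the titles. Genes at 0.5 FPKM or more in at least 5 of 20 libraries (13174 of 13256) were taken as log2(FPKM + 1), with a pseudocount of 1, and 4 group means were estimated over all 20 libraries by limma-trend (limma 3.58.1 in R 4.3.3). This scale understates the change of low genes. Adjusted p-values are Benjamini-Hochberg over all 13174 genes in each of the 6 comparisons, with a call under 0.05. The script was tested on simulated data. GC content and overlaps came from GENCODE M21, and none of the members overlaps a protein-coding gene on its own strand.

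Named genes are Fbxo33, Fbxl14, members past the threshold in any comparison, the 5 smallest p in each direction per comparison, the 10 highest and 5 lowest by mean level, members at separated levels, and the role groups. 1 member enters the counts and medians and is not reported by itself here. Fbxw7 was described by its levels after these were seen. The members and lists were chosen with earlier results of these data known. Alternatives were another scaling, pseudocounts, filters, robust estimation, weights, fits of the groups compared, a replicate block and omission of each library. GC trend removal and omission of the Prl or Ttr libraries were added after seeing the data.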

Additional observations from a re-analysis of the deposited data

Results flagged for a closer look

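In 11 of 208 groups of 5 libraries (52 members in 4 groups), the highest or lowest library stood farther from its neighbour than Dixon's critical value allows. Chance flags about 1 in 20 groups, so this number is near what chance gives. The 11 fall in 8 libraries.

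In female KO, replicate 4 held 3 of them: Fbxo11 at 40.0 FPKM (next 31.9), Fbxo44 at 15.4 FPKM (next 17.1) and Fbxo25 at 10.1 FPKM (next 11.4). That library also held 22.1 FPKM of Prl and 1097 FPKM of Ttr. In female WT, Fbxl17 stood at 4.76 FPKM in replicate 2 (next 7.89), and replicate 5 had Fbxw11 at 32.4 FPKM (next 34.8) and Fbxo30 at 2.10 FPKM (next 1.83). In male KO, replicate 1 had Fbxw7 at 35.1 FPKM (next 21.4), replicate 3 had Fbxo34 at 2.95 FPKM (next 1.73), and replicate 5 had Fbxo27 at 2.94 FPKM (next 2.08). In male WT, Fbxl17 stood at 5.31 FPKM in replicate 2 (next 8.12) and Fbxo42 at 4.85 FPKM in replicate 4 (next 5.23).

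The KO effect on Fbxl14 differed between the sexes by -0.308 on the log2(FPKM + 1) scale, with an adjusted p of 0.0436 by limma. This call was lost in 25 of 30 alternatives, over which limma's adjusted p ran from 0.0121 to 0.266.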

How the results depend on the processing

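Of the 6 counts of members past the threshold, those for male KO against male WT and for male WT against female WT were 0 under all 31 alternatives each, with 6 members each at an unadjusted p under 0.05 in the reported fit. For female KO against female WT (4 members) the count was 1 when only the groups compared were fitted, 2 with the GC trend removed, and 0 without the Prl or the Ttr libraries. Omission of 1 library gave 2 to 5. Over all tested genes, this comparison had 438 calls in the reported fit and 238 with the GC trend removed. It had 8 without the Prl libraries and 76 without the Ttr libraries. For the mean of both sexes (3 members) the count was 0 without the Prl libraries and 1 without the Ttr libraries, and 1 to 3 on omission of 1 library. For the difference between the KO effects (1 member) it was 0 with upper-quartile rescaling, a filter at 2 FPKM, the GC trend removed, or without the Prl or Ttr libraries, and 0 to 1 on omission of 1 library. Over all tested genes this difference had 6 calls in the reported fit and 3 with the GC trend removed. Leaving out the Prl libraries gave 2 calls and leaving out the Ttr libraries gave 8. For male KO against female KO (5 members) the count was 3 when only the groups compared were fitted, 0 with the GC trend removed or without the Prl libraries, 1 without the Ttr libraries, and 2 to 7 on omission of 1 library. Without the Prl or the Ttr libraries, calls over all tested genes also fell here and for the mean of both sexes, as given above. The omissions also reduce the libraries per group; beyond that, the cause was not tested. The mean KO effect on Fbxl14, 0.0262, was -0.00344 without the Ttr libraries, with no call either way.

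KO and WT replicates of the same sex and number did not deviate together, with r between -0.0667 and 0.0651 over 10 pairs. Replicates with the same number in different sexes were not compared. With the replicate block, 3 members passed in females (Fbxl5 at an adjusted p of 0.0542 by limma), 1 for the mean of both sexes, 0 for the difference between the KO effects, and 4 between male KO and female KO. Over all tested genes the block gave 320, 309, 3 and 495 calls, in that order, against 438, 424, 6 and 709 in the reported fit.

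The depth of the libraries is unknown, so how far it limits the low receptors cannot be given.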
